A study of Mus musculus with 4 samples.

Results

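The AP-1 transcription factors studied here were 10 mouse genes chosen by family name: Fos, Fosb, Fosl1 and Fosl2 of the Fos family, Jun, Junb and Jund of the Jun family, Batf and Batf3 of the Batf family, and Atf3. They are 10 of the 55401 Ensembl genes in the deposited count table, and all 10 were among the 15832 genes with enough counts to be tested. Poly(A) RNA was sequenced from macrophages grown in culture from C57BL/6J bone marrow (bone marrow-derived macrophages, BMDM), in 2 libraries of cultures given Adcy7-targeted CRISPR-Cas9 lentivirus (Adcy7 knockout) and 2 libraries of cultures given Rosa-targeted CRISPR-Cas9 lentivirus (Rosa control). Cultures of both groups therefore received CRISPR-Cas9 virus, added 1 day after isolation at 30 infectious units per cell (MOI), and differentiated over 5 days. Adcy7 codes for an adenylyl cyclase, which makes cyclic AMP, and Rosa is widely used as a neutral target site. The labels do not give guide sequences, the number of cultures or animals behind the replicates, or the age and sex of the mice.

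AP-1 is a family of pairs. Each member has a basic region that contacts DNA and a leucine zipper that joins it to a partner, and Jun proteins can pair with each other or with Fos proteins, while Fos proteins need a partner from outside their own family. The dimers bind the TRE (TGANTCA) and the related CRE (TGACGTCA), the element through which cyclic AMP acts. In macrophages these factors are known as early responders to microbial products and growth factors, and Fos and Jun are classical immediate-early genes, induced within minutes through MAP kinases and cyclic AMP signalling. Batf, Batf3 and Atf3 lack the long activation domains of Fos and Jun and are often described as modulators of the family.

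The library totals were 61782358 to 71914179 estimated counts. Adcy7 itself was at 59.4 and 58.8 CPM (counts per 1e6 counts in the library) in the knockout libraries, against 122 and 125 CPM in the control libraries, so the knockout kept 48.4% of the control mRNA level (log2 fold change -1.05, SE 0.09, adjusted p = 4.6e-06). The share of edited gene copies is not known from mRNA. Of 12 macrophage markers 11 were lower in the knockout, where 24.6% of all tested genes were lower, and their median log2 fold change was -4.42. Their summed levels were 20357 and 20172 CPM in the knockout libraries and 57058 and 58708 CPM in the control libraries. Most of that sum was Lyz2, at 16468 and 16440 CPM in the knockout, against 50358 and 52209 CPM in the control. The largest fall was that of C1qa, at 0.0556 and 0 CPM in the knockout, against 76.5 and 66.9 CPM in the control. The general marker Cd68 was at 956 and 894 CPM in the knockout against 916 and 855 CPM in the control. Markers of several other marrow cells were higher, and are given beside Batf and Batf3. In bulk RNA, fewer cells of a type and less RNA per cell cannot be told apart. The labels do not say that replicates came from separate cultures, so the spread behind each p-value may be technical.

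The AP-1 genes split in the Adcy7 knockout. Fosl1, Batf, Fosl2 and Atf3 rose, Fos, Fosb, Batf3 and Jun fell, and Junb and Jund did not pass the test. The largest changes were an 11.5-fold rise of Fosl1 and a fall of Fos to 9.61% of its control level. Of the 10 genes 8 passed the quasi-likelihood test of edgeR at an adjusted p of 0.05 (Benjamini-Hochberg over all tested genes), 4 higher and 4 lower, where 49.6% of all tested genes passed, 25.0% higher and 24.6% lower. For 5 of the 10 the change also reached 2-fold, against 22.2% of all tested genes. The knockout and control libraries did not overlap for 9 of the 10, against 75.2% of all tested genes. The median log2 fold change of the 10 was -0.01 beside 0.01 over all tested genes, and the median of its absolute size was 1.08 beside 0.53. Counts of members are read only beside these shares of the tested genes.

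**Figure D1:**
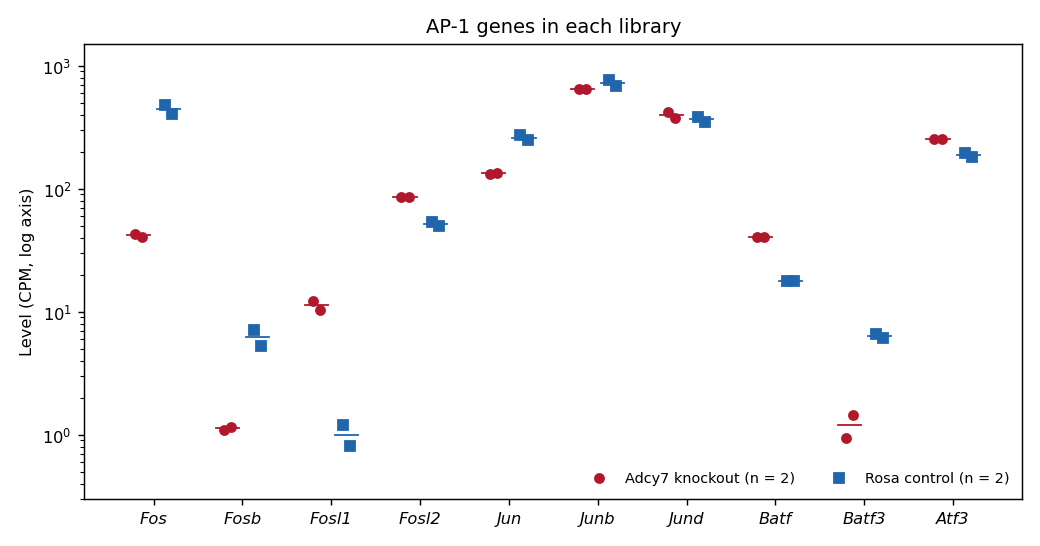
Level of the 10 AP-1 genes in CPM (log axis) in each of the 2 Adcy7 knockout libraries (red circles) and the 2 Rosa control libraries (blue squares), with a line at each group mean. Fos stands at 40.7 to 43.1 CPM in the knockout against 402 to 481 CPM in the control, Fosl1 shows the opposite order, and the Jund libraries of the groups interleave.

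**Figure D2:**
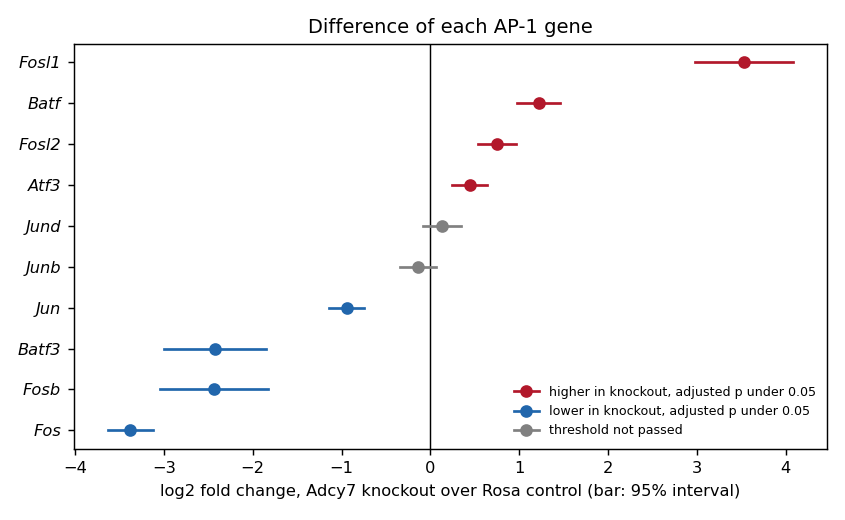
Log2 fold change of each AP-1 gene, Adcy7 knockout over Rosa control, with its 95% interval from edgeR's quasi-likelihood fit, ordered by size. Intervals of Junb and Jund include 0, and the other 8 do not.

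Fos, the founding member and the main Fos protein of freshly stimulated cells, had 3103 and 2517 counts in the knockout libraries against 31657 and 28092 counts in the control libraries. This was 43.1 and 40.7 CPM in the knockout, against 481 and 402 CPM in the control. Both knockout libraries lay far below both controls, and the gap between groups was many times the gap within them. The log2 fold change was -3.38 (SE 0.11, 95% interval -3.63 to -3.13, adjusted p = 3.17e-09). By absolute size of its log2 fold change Fos stood at place 735 among the 15832 tested genes. Fosb, which codes for a Fos protein induced by the same kind of stimulus, had 79 and 71 counts in the knockout against 470 and 364 in the control. It was low in every library, at 1.10 and 1.15 CPM in the knockout, against 7.15 and 5.21 CPM in the control, and the groups did not overlap. Fosb fell by 2.44 on the log2 scale (SE 0.28, adjusted p = 2.97e-05).

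The Fos-related antigens moved the other way. Fosl1 codes for FRA-1, which lacks the strong activation domain of Fos and is known for slower, more lasting induction. It had 881 and 636 counts in the knockout libraries and 78 and 56 counts in the control libraries, or 12.3 and 10.3 CPM in the knockout against 1.19 and 0.801 CPM in the control. Fosl1 was low in both control libraries, and both knockout libraries were well above them. Fosl1 rose by 3.53 on the log2 scale (SE 0.25, 95% interval 2.98 to 4.08, adjusted p = 7.48e-07). Its annotation overlaps Ccdc85b on the opposite strand. Ccdc85b was at 53.0 and 41.7 CPM in the knockout, against 41.7 and 40.3 CPM in the control, and did not pass (log2 fold change 0.23, SE 0.13, adjusted p = 0.169). As no strand-keeping method is named, reads from the stretch these genes share cannot be told apart, and their part in the Fosl1 value was not tested. Fosl2, which codes for FRA-2, had 85.7 and 85.6 CPM in the knockout against 53.7 and 49.3 CPM in the control. The knockout libraries were nearly equal and above both controls, and Fosl2 rose 1.68-fold (log2 fold change 0.75, SE 0.10, adjusted p = 7.54e-05).

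The make-up of the Fos family mRNA therefore differed between the groups. Levels of different genes can be set side by side only per length, so CPM was divided by the length in kilobases of the gene's annotated exons. On that scale Fos was 54.9% and 55.1% of the summed Fos family level in the knockout libraries, against 96.6% and 96.4% in the control libraries. Fosl2 was 26.5% and 28.1% in the knockout and 2.62% and 2.87% in the control, and Fosl1 was 18.0% and 16.1% in the knockout and 0.275% and 0.222% in the control. Fosb stayed under 1% throughout, at 0.527% and 0.586% in the knockout and 0.540% and 0.471% in the control. The summed level itself was 33.4 and 31.4 CPM per kb in the knockout against 212 and 177 CPM per kb in the control. Even after its fall, Fos remained the most abundant Fos family mRNA per length in every library. These shares need no scaling between libraries, but they rest on the annotated exon length, which is longest for Fosl2 (9.68 kb, against 2.35 kb for Fos) and would give Fosl2 a larger share if a shorter transcript were made.

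**Figure D3:**
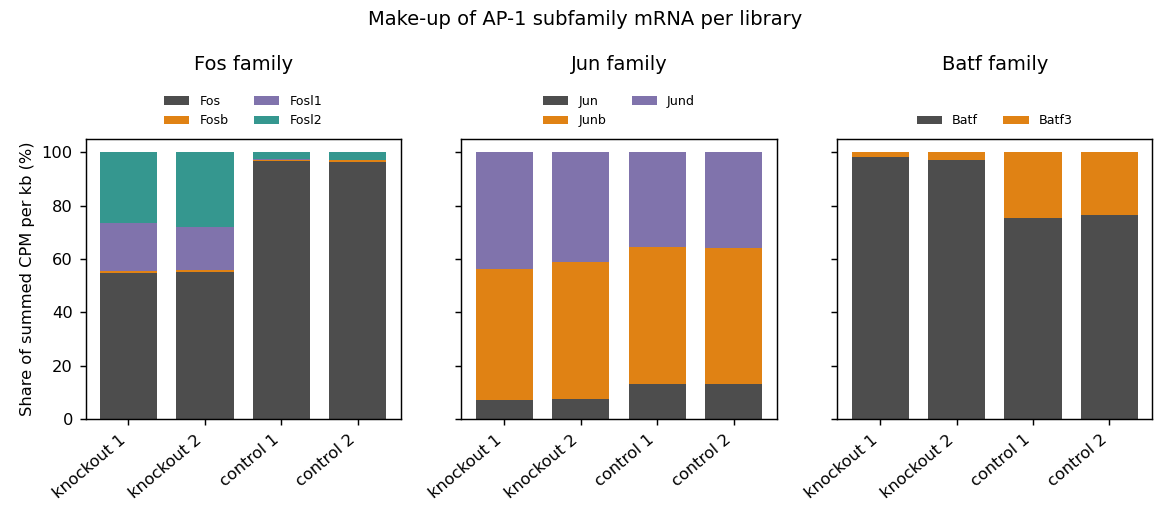
Share (%) of each gene in the summed level per kilobase of the Fos, Jun and Batf families, 1 stacked bar per library, knockout libraries on the left. In the Fos family Fos takes 54.9% and 55.1% of the knockout bars and over 96% of the control bars, and in the Jun family Junb takes about the same share in all 4 libraries.

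Of the Jun family, Jun was the member that changed. Jun codes for the strongest activator among the Jun proteins and the usual partner of Fos. It had 132 and 134 CPM in the knockout libraries against 270 and 248 CPM in the control libraries, and the groups were well apart. Jun fell by 0.94 on the log2 scale (SE 0.09, 95% interval -1.14 to -0.75, adjusted p = 7.45e-06), which is 52.0% of the control level. The antisense gene Junos, which overlaps Jun on the other strand, was at 18.8 and 16.6 CPM in the knockout, against 12.5 and 11.0 CPM in the control. Junos rose (log2 fold change 0.61, SE 0.14, adjusted p = 0.00419), so the neighbours moved in opposite directions, although reads from their shared stretch cannot be assigned without strand.

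Junb and Jund, whose proteins activate more weakly than Jun and can restrain it, had the highest levels of the 10 genes per kilobase of exon in both groups, and the smallest log2 fold changes. Junb was at 650 and 645 CPM in the knockout, against 759 and 684 CPM in the control. The knockout libraries were both below the controls, but the difference did not pass (log2 fold change -0.14, SE 0.09, 95% interval -0.34 to 0.06, adjusted p = 0.228). Junb overlaps Prdx2 on the opposite strand, which was at 240 and 204 CPM in the knockout, against 249 and 259 CPM in the control (log2 fold change -0.18, adjusted p = 0.186). Jund was at 418 and 374 CPM in the knockout, against 382 and 351 CPM in the control, with overlapping groups and a log2 fold change of 0.13 (SE 0.10, 95% interval -0.09 to 0.34, adjusted p = 0.305). Without knockout replicate 2 the Jund value became 0.24 and passed (adjusted p = 0.0334). Missing the threshold does not show that Junb or Jund was equal in the groups, since the intervals reach -0.34 for Junb and 0.34 for Jund. Per length, Jun was 7.22% and 7.70% of the Jun family in the knockout against 13.2% and 13.3% in the control. Junb was 49.2% and 51.3% in the knockout and 51.2% and 50.8% in the control. The summed Jun family level was 574 and 546 CPM per kb in the knockout and 644 and 585 CPM per kb in the control.

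The Batf genes moved in opposite directions. Batf, whose protein pairs with Jun proteins and binds together with interferon regulatory factors, had 2915 and 2512 counts in the knockout and 1164 and 1232 counts in the control. Its levels were 40.5 and 40.7 CPM in the knockout, against 17.7 and 17.6 CPM in the control, and were nearly equal within each group. Batf rose 2.32-fold (log2 fold change 1.22, SE 0.11, adjusted p = 4.96e-06). Batf3 is best known as a factor needed for cross-presenting dendritic cells. It had 67 and 89 counts in the knockout and 436 and 427 counts in the control, or 0.932 and 1.44 CPM in the knockout, against 6.63 and 6.11 CPM in the control. Both knockout libraries were far below both controls. Batf3 fell by 2.43 on the log2 scale (SE 0.26, adjusted p = 1.95e-05). Per length, Batf3 made up 1.98% and 3.02% of the pair in the knockout against 24.8% and 23.4% in the control.

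Batf and Batf3 are best known from lymphocytes and dendritic cells, whose markers were also measured. The marker counts stand beside 25.0% of all tested genes higher and 24.6% lower. Of 10 dendritic cell markers 9 were tested, of which 6 rose and 1 fell, with summed levels of 318 and 397 CPM in the knockout, against 79.4 and 69.7 CPM in the control. Most of that sum was Cd24a, at 266 and 345 CPM in the knockout, against 69.2 and 61.1 CPM in the control, a gene that other marrow cells also express. The other markers that rose were Ccr7 (17.1-fold), Itgae (7.34-fold), Zbtb46 (3.20-fold), Flt3 (2.60-fold) and Itgax (2.53-fold). Dpp4 fell to 31.3% of its control level. Xcr1 and Clec9a, which mark cross-presenting dendritic cells, were close to 0. Xcr1 was at 0.167 and 0.275 CPM in the knockout, against 0.593 and 0.258 CPM in the control, and Clec9a was at 0.181 and 0.194 CPM in the knockout, against 0.0608 and 0 CPM in the control, and neither passed. Of 8 T cell markers 4 were tested and 1 rose. The 8 summed to 9.86 and 8.37 CPM in the knockout, against 1.57 and 1.55 CPM in the control. Lck, the marker that rose, made up most of these sums. It was at 8.16 and 7.25 CPM in the knockout, against 1.03 and 1.29 CPM in the control. Cd3d, Cd3e and Cd2 did not pass. Of 8 B cell markers 7 were tested, of which 6 rose and 1 fell, with sums of 39.2 and 43.3 CPM in the knockout, against 27.5 and 28.5 CPM in the control. For platelets 7 of 7 tested markers rose, with sums of 352 and 311 CPM in the knockout, against 199.6 and 183 CPM in the control. Pf4 made up most of these sums, at 207 and 189 CPM in the knockout, against 170 and 153 CPM in the control. Pf4 rose 1.24-fold, and the other platelet markers rose from 1.63-fold (Ppbp) to 34.8-fold (Gp1bb). For eosinophils 6 of 7 rose (290.3 and 229.9 CPM in the knockout, against 35.8 and 32.1 CPM in the control), and Il5ra and Ear6 had no count in the control. For mast cells and basophils 7 of 8 rose (119.8 and 114 CPM in the knockout, against 37.5 and 28.3 CPM in the control), and Cma1 was at 0 in every library. For fibroblasts 3 of 6 rose (44.1 and 50.4 CPM in the knockout, against 3.10 and 2.13 CPM in the control), and for neutrophils 5 of 9 fell (3820.5 and 4951 CPM in the knockout, against 5033 and 4315 CPM in the control). The part of these cells in the AP-1 values was not tested.

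Atf3, a stress-induced factor that in macrophages is known to limit cytokine genes, was at 254 and 252 CPM in the knockout libraries and 196 and 182 CPM in the control libraries. The groups did not overlap, and the rise of 1.36-fold was the smallest of the changes that passed (log2 fold change 0.44, SE 0.09, 95% interval 0.25 to 0.63, adjusted p = 0.00176). Its adjusted p was 0.0496 without control replicate 2.

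Set in order by level per length, Junb and Jund were first and second in both groups. In the knockout Atf3, Jun, Batf, Fos, Fosl2, Fosl1, Batf3 and Fosb followed, at 118, 41.8, 28.9, 17.8, 8.85, 5.54, 0.743 and 0.180 CPM per kb, and no neighbours in that order had overlapping libraries. In the control Fos was at place 3, at 188 CPM per kb. Atf3 at 87.7 and Jun at 81.3 CPM per kb came next, with ranges that overlapped across the libraries. Within each control library Atf3 was above Jun, at 90.8 against 84.8 and 84.6 against 77.8 CPM per kb. Batf, Fosl2, Batf3, Fosb and Fosl1 followed at 12.6, 5.32, 3.99, 0.990 and 0.489 CPM per kb. Fos thus stood at place 6 in the knockout and place 3 in the control, and Fosl1 at place 8 in the knockout and last in the control.

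Several members are neighbours in the genome. On chromosome 12, Fos and Batf are separated by only 1 protein-coding gene, Jdp2, which is itself a Jun-binding leucine zipper factor. Across this run of 3 genes Fos fell to 9.61% of its control level, Jdp2 was at 58.6 and 52.2 CPM in the knockout, against 47.0 and 42.2 CPM in the control (a 1.26-fold rise, adjusted p = 0.0273), and Batf rose 2.32-fold. On chromosome 1, Batf3 and Atf3 are separated by Fam71a, which had 7 and 0 counts in the knockout and 0 and 4 in the control and was not tested. Here too the neighbours differed in direction, with Batf3 lower and Atf3 higher in the knockout. The order of genes comes from RefSeq on GRCm38.p6, another build than the counts.

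Promoter windows from 250 bases before to 50 bases after the start (RefSeq, GRCm38.p6; the counts use GRCm39) were found for 9 of the 10 genes, all but Fosl1. They were searched on both strands for TRE (TGANTCA), CRE (TGACGTCA), the CArG box to which SRF binds, the NF-kB site and the TATA box (TATAAA), and, added after the sequences had been seen, for TGACG, the core that a CRE holds on each strand. No window held a full TRE, CRE or CArG box, which 7.81%, 1.79% and 1.63% of all 32851 windows hold. TGACG was in 5 of the 9 windows, against 20.8% of all windows. A match is a description of these letters and not a site, and no match says only that they are not in this window. The 5 include genes that fell (Fos and Fosb), genes that rose (Batf and Atf3) and Junb, which did not pass. The first 4 are shown for that reason, with Jun as a gene that fell without the match. Capitals mark TGACG or its reverse complement CGTCA and the TATA box, and each window reads 5′ to 3′ along the gene.
Fos, chr12:85473640-85473939, plus strand: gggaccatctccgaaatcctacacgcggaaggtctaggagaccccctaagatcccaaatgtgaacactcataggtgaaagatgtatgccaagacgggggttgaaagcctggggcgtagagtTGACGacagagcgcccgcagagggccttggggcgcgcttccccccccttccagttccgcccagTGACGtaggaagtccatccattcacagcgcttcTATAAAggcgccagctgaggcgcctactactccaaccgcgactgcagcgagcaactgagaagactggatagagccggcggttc
Fosb, chr7:19309996-19310295, minus strand: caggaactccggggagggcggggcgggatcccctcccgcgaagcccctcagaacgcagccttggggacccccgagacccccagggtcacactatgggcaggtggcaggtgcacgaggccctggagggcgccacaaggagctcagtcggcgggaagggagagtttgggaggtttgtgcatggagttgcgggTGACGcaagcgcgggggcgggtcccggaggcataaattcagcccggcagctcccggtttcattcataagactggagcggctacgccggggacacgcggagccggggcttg
Jun, chr4:95052173-95052472, minus strand: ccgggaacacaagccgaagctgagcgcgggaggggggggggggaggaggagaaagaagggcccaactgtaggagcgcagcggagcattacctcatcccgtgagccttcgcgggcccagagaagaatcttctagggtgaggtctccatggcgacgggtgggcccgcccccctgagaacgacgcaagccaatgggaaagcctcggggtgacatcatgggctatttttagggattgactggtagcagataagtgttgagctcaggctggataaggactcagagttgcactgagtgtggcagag
Batf, chr12:85686470-85686769, plus strand: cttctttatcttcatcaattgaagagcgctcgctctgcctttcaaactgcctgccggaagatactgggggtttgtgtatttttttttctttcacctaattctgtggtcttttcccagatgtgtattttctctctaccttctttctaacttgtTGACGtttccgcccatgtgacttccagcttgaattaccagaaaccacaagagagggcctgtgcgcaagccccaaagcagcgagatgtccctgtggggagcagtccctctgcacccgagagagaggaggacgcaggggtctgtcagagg
Atf3, chr1:191183284-191183583, minus strand: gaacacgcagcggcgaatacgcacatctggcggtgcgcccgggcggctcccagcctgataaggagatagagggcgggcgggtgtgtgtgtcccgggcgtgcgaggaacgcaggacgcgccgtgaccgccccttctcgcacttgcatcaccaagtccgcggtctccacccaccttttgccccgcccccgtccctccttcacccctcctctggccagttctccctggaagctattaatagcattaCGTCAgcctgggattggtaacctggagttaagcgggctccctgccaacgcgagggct
In Fos the core starts 129 and 66 bases before the start and the TATA box 33 bases before it. In Fosb and Batf it starts 60 and 98 bases before, and in Atf3 it lies on the other strand 7 bases before the start. The NF-kB site was matched in Fos, Fosb and Fosl2, against 5.80% of all windows. The 3 genes with this match did not share a direction, since Fos and Fosb fell and Fosl2 rose.

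Factors that pair with AP-1 proteins or belong to the same leucine zipper class changed in both directions. Of 20 listed genes 19 were tested, of which 11 rose, 6 fell and 2 did not pass (median log2 fold change 0.47). Of all tested genes 25.0% were higher and 24.6% lower. The large Maf factor gene Maf was at 23.0 and 22.2 CPM in the knockout, against 201 and 182 CPM in the control, and fell by 3.06 on the log2 scale (SE 0.10, adjusted p = 3.45e-09). The small Maf factor Maff, which lacks an activation domain, rose 9.63-fold, with 93.3 and 89.3 CPM in the knockout, against 10.2 and 9.002 CPM in the control. Atf5, a factor of the amino acid stress response, rose 5.74-fold (adjusted p = 1.31e-08). Batf2, the third Batf gene, was at 1.84 and 2.28 CPM in the knockout, against 4.33 and 3.68 CPM in the control and fell by 0.95 on the log2 scale (SE 0.25, adjusted p = 0.00842), a gene named after its values were seen. Nrl had no count in any library.

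MAP kinases and the kinases below them act on AP-1 genes and proteins. The counts for these kinases and for the promoter factors stand beside 25.0% of all tested genes higher and 24.6% lower. Among the 23 tested of 25 listed, 5 were higher, 7 were lower and 11 did not pass, with a median of 0.01, and without control replicate 1 the number that rose was 3. Mapk14, the p38 alpha kinase, was at 89.7 and 92.4 CPM in the knockout, against 174 and 167 CPM in the control and fell by 0.89 on the log2 scale (SE 0.09, adjusted p = 1.1e-05). Rps6ka4 (MSK2, a kinase of CREB and chromatin) and Map2k1 (MEK1, upstream of ERK) rose 1.95-fold and 1.78-fold. Rps6ka1 (RSK1) fell by 0.80. Of the factors that act on the Fos and Jun promoters, 14 were tested of 16 listed names, of which 3 rose, 2 fell and 9 did not pass, with a median of 0.05. Mef2c and Mef2a, which bind the Jun promoter, fell by 1.91 and 0.85. Crem, whose products include the cyclic AMP-induced repressor ICER, rose 2.46-fold, with 9.97 and 11.6 CPM in the knockout, against 3.38 and 5.42 CPM in the control, and Crtc2, a CREB coactivator, rose 1.44-fold. These are the 4 with the smallest adjusted p in this list.

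The next 2 lists also stand beside 25.0% of all tested genes higher and 24.6% lower. Genes listed for the turnover of Jun and Fos proteins gave 2 rises and 3 falls among 8 tested, with a median of -0.01. Without control replicate 2 these numbers were 1 and 1. Trib1, an adaptor of the COP1 ubiquitin ligase, was at 12.0 and 12.1 CPM in the knockout, against 60.7 and 46.9 CPM in the control. Trib1 fell by 2.14 (SE 0.14, adjusted p = 3.57e-07). It is listed as a partner of COP1, and its part in Jun or Fos turnover was not tested. The ubiquitin ligase gene Itch fell by 0.39 on the log2 scale. Of 6 genes whose products bind beside BATF, 1 rose, 3 fell and 2 did not pass. Irf8 was at 110 and 105 CPM in the knockout, against 347 and 337 CPM in the control and fell by 1.66 (SE 0.09, adjusted p = 1.13e-07), and Nfatc2 fell by 1.98. Stat3 rose 1.58-fold, Nfatc1 fell by 0.38, and Irf4 was at 4.92 and 8.40 CPM in the knockout, against 7.56 and 6.23 CPM in the control (log2 fold change -0.05, adjusted p = 0.883). Batf was thus higher and Irf8 lower in the same libraries.

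Most textbook targets of AP-1 were higher in the knockout. Of 31 listed genes 28 were tested, of which 20 rose, 5 fell and 3 did not pass (median log2 fold change 1.45), beside 25.0% and 24.6% of all tested genes higher and lower. Csf2 had no count in the control. Setting it at its lower bound (3 counts over the group) left it above the median, so the median of 1.45 could not change. Mmp13, the collagenase gene long used as a model AP-1 target, was at 126 and 141 CPM in the knockout, against 5.49 and 5.85 CPM in the control, a 23.7-fold rise (adjusted p = 8.82e-10). Ptgs2, the gene of cyclooxygenase 2, and Mmp12, the macrophage elastase gene, rose 40.8-fold and 31.7-fold. Ccnd1, the cyclin D1 gene, went the other way, with 8.73 and 8.87 CPM in the knockout, against 467 and 435 CPM in the control, and a fall of 5.66 on the log2 scale (SE 0.11, adjusted p = 2.85e-10). Such genes also answer to many other factors, and the list was written with earlier results of these data known.

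Other immediate-early genes also changed in both directions. Among the 17 tested, 5 were higher, 8 were lower and 4 did not pass, with a median of -0.22. Of all tested genes 25.0% were higher and 24.6% lower. Zfp36, the gene of the mRNA decay factor tristetraprolin, Btg2, Klf2 and Egr1 fell by 2.15, 2.06, 1.74 and 1.81. Egr1, which like Fos is driven through SRF, was at 96.7 and 113 CPM in the knockout, against 401 and 342 CPM in the control.

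**Figure D4:**
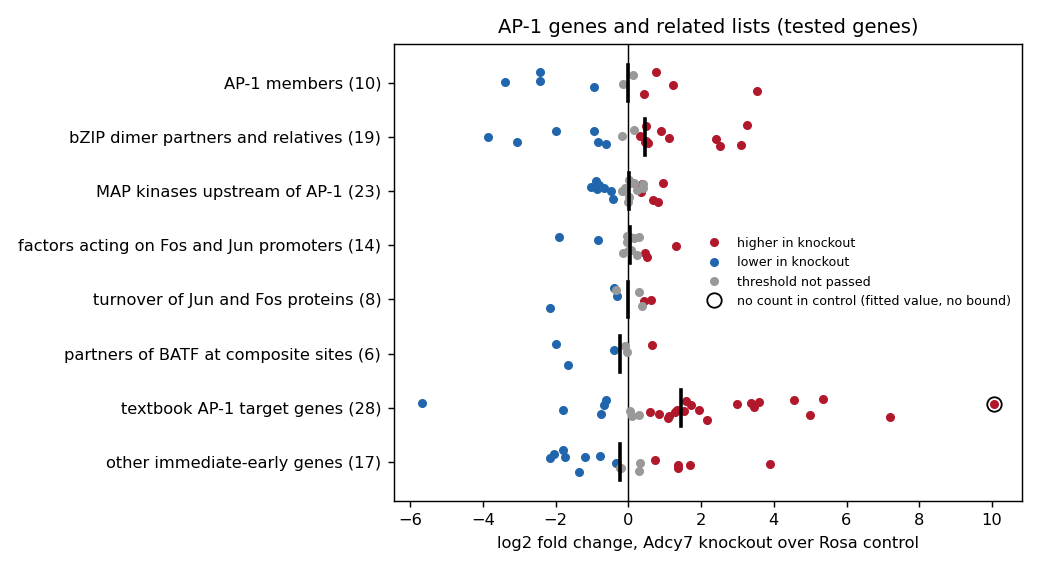
Log2 fold change, Adcy7 knockout over Rosa control, of every tested AP-1 gene and of tested genes in 7 related lists (number tested in parentheses), coloured by whether the gene passed an adjusted p of 0.05, with a bar at each list's median. The AP-1 genes lie on both sides of 0 with a median of -0.01, while the textbook targets have a median of 1.45; the ringed point is Csf2, which had no count in the control.

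Genes with a pattern like that of 2 members were looked for among 12204 genes with a mean of at least 1 CPM, as the smallest distance between log2(CPM + 1) values centred over the 4 libraries. Closest to Fosl1, the member with the largest change, were Ntng2, Boc and Adora2a, at distances of 0.107, 0.110 and 0.133. Their log2 fold changes were 2.73, 3.47 and 2.79, beside 3.53 for Fosl1. The added 1 shrinks the change of a gene as low in the control as Fosl1. Adora2a was at 73.5 and 67.1 CPM in the knockout, against 10.8 and 9.82 CPM in the control. Closest to Junb, the member with the highest mean CPM, were Arid1a, Akap8l and Ftsj1, at distances of 0.00821, 0.0190 and 0.0238. With 4 libraries in 2 groups such likeness is only a description.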

How the data were processed

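Per the submitters' processing notes, the tools were edgeR, StringTie, HISAT2 and fastp, and the genome build was GRCm39. Their versions and the gene annotation are not stated in any source used. The authors deposited estimated counts for each Ensembl ID as whole numbers, with library totals that differ. Low counts favoured multiples of 4. Only every 4th whole number is such a multiple, but they made up 30.5% to 32.2% of counts from 1 to 40. So 1 fragment may be worth more than 1 count. The values therefore cannot be read as numbers of fragments.

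Symbols came from GENCODE M21 (GRCm38), which named 55141 of 55401 IDs. A symbol shared by several IDs went to the one with the highest total. Column names of the knockout hold KO3 and were matched to titles by KO and number. Genes were filtered with filterByExpr, given TMM factors, and fitted in R 4.3.3 by edgeR 4.0.16 (quasi-likelihood, legacy = FALSE, 2 residual degrees of freedom, common dispersion 0.0238, Benjamini-Hochberg adjustment, threshold 0.05). SE is the absolute log2 fold change divided by the root of its F value. SDs are not printed with 2 libraries a group, whose values are given instead. The fit was tested on simulated counts, where it called 16% of 1.5-fold, 74% of 2-fold and 100% of 4-fold changes, and 0.08% of unchanged genes. Only 50 genes were changed at each fold, all with the same dispersion. The simulation thus differs from these data, where 49.6% of tested genes passed. Members and lists were chosen with earlier results of these data known. Apart from the 10 members and Adcy7, each pathway list is represented by its 4 smallest adjusted p values, some of which are not reported here. Exon lengths are the union over GENCODE M21 transcripts. Alternatives, including DESeq2 1.42.0, are given in the closing section.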

Additional observations from a re-analysis of the deposited data

How the results depend on the processing

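For the 10 AP-1 genes, 119 of 120 values under 12 alternatives kept their direction and their side of the threshold. The alternatives were DESeq2 size factors, deposited totals, upper-quartile factors, DESeq2's own test, no filter, a mean of at least 1 CPM, counts divided by 4, the replicate number as a block, and leaving out each library. The exception was Jund, at 0.24 without knockout replicate 2. Across the alternatives Fos ranged from -3.49 to -3.27, Fosl1 from 3.28 to 3.81, Batf3 from -2.72 to -2.15 and Atf3 from 0.40 to 0.48, with adjusted p values up to 0.000225, 0.000806, 0.00194 and 0.0496. Leaving out a library gave 4 to 5 members higher and 4 lower. Over all genes it gave 2947 to 3844 higher and 3137 to 3710 lower. Replicate numbers of the groups did not deviate together (r = 0.0264 across genes). With the replicate block 4 members were higher and 4 lower, and 3932 and 3911 genes passed in each direction. Leaving out a library gave 3 to 5 kinases higher, and 1 to 2 higher and 1 to 3 lower among genes of Jun and Fos turnover. The cause was not tested. The median log2 fold change of all genes lay between -0.002 and 0.048 under every alternative. TMM-scaled totals moved no level by more than 0.703%. With 2 libraries a group, an exact permutation test cannot go below p = 0.333, so every call rests on the spread shared across genes.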
